A study of Mus musculus with 37 samples.

Results

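The matrix metalloproteinases (Mmp), the ADAMTS proteases and the tissue inhibitors of metalloproteinases (Timp) were followed in bulk RNA-seq of mouse pancreatic tumours. A gene was a member when its deposited symbol was Mmp with a number and an optional letter, Adamts with a number, or Timp1 to Timp4. The rule found 46 of 39017 genes, of which 23 were Mmp, 19 were Adamts and 4 were Timp genes. Clones of pancreatic tumour cells had been grown under the skin of untreated C57BL/6 mice, and whole tumours were collected at 3 weeks. The T cell phenotype label read high for 15 tumours of 7 clones, intermediate for 4 tumours of 2 clones and low for 15 tumours of 7 clones. A further 3 libraries without a phenotype label entered no comparison. The genotype of the clones, the age of the mice and the way the phenotype was scored were not stated in these sources.

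Matrix metalloproteinases are zinc enzymes that cut collagen and other matrix proteins and are mostly made as inactive precursors. ADAMTS enzymes are secreted relatives that cut proteoglycans and process procollagens. TIMPs bind and block the active sites of matrix metalloproteinases, and not all of them block ADAMTS enzymes. In tumours these genes are known from cancer cells, fibroblasts, macrophages and granulocytes alike, so a bulk level sums several cell types. Fewer cells of a type and less RNA per cell cannot be told apart in such samples.

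Each clone was taken as 1 replicate, with the counts of its tumours added up, because they arose from the same cells. P-values between phenotypes therefore measure the spread between clones. The tests among clones and between the classes of libraries defined below used single tumours. Their p-values measure the spread between tumours within clones. Some clones of different phenotype share a number in their names that the labels do not explain. The 34 libraries with a phenotype held between 7.39 M and 102.33 M counts (median 31.8 M). In 17 of them the heart genes Myh6 and Myh7 and the liver genes Cps1 and Serpina3k summed to over 10 CPM, a count scaled to the total of its library. These are called libraries with liver and heart transcripts, and they came from 7 high, 2 intermediate and 7 low clones. The other 17 libraries came from 7 high, 2 intermediate and 6 low clones, and the low clone bulk_6422c1 had none. They are called libraries without these transcripts by the same 4 genes, but some other liver and heart markers were counted there. The sum of 6 liver markers was 11.8 to 1079 CPM and that of 6 heart markers 17.5 to 473 CPM. The largest part of the highest sums came from 1 marker, but further liver markers were counted beside it. In bulk_6499c3, Apob was at 971 CPM, Ttr at 83.6 CPM, Alb at 16.3 CPM and Cps1 at 0.206 CPM. In bulk_6419c1, Apob was at 668 CPM, Ttr at 147 CPM, Alb at 123 CPM, Apoa1 at 48.6 CPM and Cps1 at 0.466 CPM. In bulk_6556c4, Tnnt2 was at 472 CPM and Actc1 at 0.107 CPM. Levels per clone below come from the 17 libraries without these transcripts, of which most clones had only 1, in CPM after TMM scaling. The tests between phenotypes used the sums of all libraries of a clone and were repeated on those 17. All 7 ductal epithelial markers were detected in each class of libraries, with sums of 3074 to 7902 CPM in libraries with and 3819 to 8709 CPM in libraries without these transcripts.

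Of the members, 10 lie side by side on mouse chromosome 9 between positions 7272514 and 7699585 (GRCm38, GENCODE M21). This run of 427.1 kb holds the collagenase genes Mmp13, Mmp8, Mmp1a and Mmp1b, the stromelysins Mmp3 and Mmp10, the macrophage elastase Mmp12, the matrilysin Mmp7, and Mmp27 and Mmp20. GENCODE M21 lists Mmp1a as a polymorphic pseudogene. RefSeq promoter windows, from 250 bases before to 50 bases after a transcript start (GRCm38.p6), were found for 32 of the 46 members, including all 10 of this cluster. The windows were searched on both strands for TGANTCA, where N is any base. This pattern takes in TGACTCA and TGAGTCA, the usual letters bound by AP-1 factors (Fos and Jun dimers), as well as other forms. A match was present for 8 of the 10 cluster members and for 0 of the 22 other members with a window. Among all 32851 windows of the table, 7.81% held a match. The windows below show where the letters lie in 5 cluster members that differ in level between clones and in Mmp8, which has no match. They are written 5′ to 3′ on the plus strand, with the match in capitals.

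Mmp13, chr9:7272264-7272563: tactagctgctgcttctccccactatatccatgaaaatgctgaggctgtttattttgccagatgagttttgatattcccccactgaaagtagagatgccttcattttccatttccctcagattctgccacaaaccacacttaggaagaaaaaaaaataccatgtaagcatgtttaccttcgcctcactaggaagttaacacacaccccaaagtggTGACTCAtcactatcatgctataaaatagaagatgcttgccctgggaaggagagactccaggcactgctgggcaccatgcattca
Mmp12, chr9:7347124-7347423: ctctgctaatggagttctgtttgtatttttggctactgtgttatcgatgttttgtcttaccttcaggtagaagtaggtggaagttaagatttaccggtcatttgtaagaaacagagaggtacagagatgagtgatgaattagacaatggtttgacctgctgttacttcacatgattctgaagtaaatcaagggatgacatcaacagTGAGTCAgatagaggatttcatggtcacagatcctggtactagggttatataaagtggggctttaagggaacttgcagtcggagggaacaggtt
Mmp3, chr9:7445572-7445871: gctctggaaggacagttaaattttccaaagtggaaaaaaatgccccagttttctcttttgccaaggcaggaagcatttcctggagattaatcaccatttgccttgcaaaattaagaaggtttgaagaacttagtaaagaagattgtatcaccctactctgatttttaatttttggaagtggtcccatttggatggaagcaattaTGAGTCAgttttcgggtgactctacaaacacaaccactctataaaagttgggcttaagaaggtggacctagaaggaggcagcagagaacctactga
Mmp10, chr9:7502092-7502391: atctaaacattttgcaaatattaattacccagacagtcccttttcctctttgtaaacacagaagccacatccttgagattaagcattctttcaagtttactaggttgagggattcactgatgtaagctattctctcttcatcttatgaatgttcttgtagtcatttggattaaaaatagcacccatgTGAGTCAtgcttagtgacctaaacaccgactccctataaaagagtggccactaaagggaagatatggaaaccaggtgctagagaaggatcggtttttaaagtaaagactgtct
Mmp7, chr9:7691840-7692139: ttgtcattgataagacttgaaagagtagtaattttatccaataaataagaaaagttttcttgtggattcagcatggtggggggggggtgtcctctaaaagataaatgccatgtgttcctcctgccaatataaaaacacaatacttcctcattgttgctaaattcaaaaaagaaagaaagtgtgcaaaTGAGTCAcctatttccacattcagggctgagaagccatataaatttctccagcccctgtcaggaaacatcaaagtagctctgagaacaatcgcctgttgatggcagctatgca
Mmp8, chr9:7558179-7558478: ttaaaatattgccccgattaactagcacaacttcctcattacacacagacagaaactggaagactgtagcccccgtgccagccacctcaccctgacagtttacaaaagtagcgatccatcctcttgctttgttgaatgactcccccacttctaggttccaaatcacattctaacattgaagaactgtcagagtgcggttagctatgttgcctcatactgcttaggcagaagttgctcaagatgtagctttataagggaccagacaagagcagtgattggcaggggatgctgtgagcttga

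The first base of the match lies 35 bases before the start in Mmp13, 44 in Mmp12, 46 in Mmp3 and 63 in both Mmp10 and Mmp7. Mmp1a, Mmp1b and Mmp20 hold a match at 73, 93 and 95 bases, of which that of Mmp20 reads TGAATCA, outside the usual AP-1 letters. For Mmp12 and Mmp7 the table holds a further window without a match. A match describes letters in the window and not a bound site.

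Per kilobase of exon, the inhibitors and the membrane collagenase Mmp14 led the members. Over the 15 clones with a library without liver and heart transcripts, the median was 129 CPM per kilobase for Timp2, 112 for Timp1 and 92.2 for Mmp14. The gelatinase Mmp2 and the stromelysin Mmp3 followed at 43.3 and 42.8 CPM per kilobase, and the gelatinase Mmp9 stood at 35.4. Mmp13, the main collagenase of rodents, reached 23.7, and the proteoglycan-cutting Adamts1 was the highest ADAMTS gene at 16.5. Mmp12 and the membrane-type Mmp15 were at 13.5 and 13.4 CPM per kilobase. At the other end, Mmp20, which is known from tooth enamel, had a median of 0, and Mmp1a, Adamts13, Adamts18, Adamts19 and Timp4 were at or under 0.0157 CPM per kilobase. The expression filter kept 42 members for the tests, leaving out Mmp1a, Mmp1b, Mmp20 and Mmp21. With only the 17 libraries of that class it kept 39, leaving out also Adamts13, Adamts18 and Adamts19.

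Some members share exon sequence with genes on the opposite strand, and the strand setting of the counting is not given. The shared part was 22.3% of the exon length for Mmp19 with Tmem198b and 21.3% for Timp3 with Syn3. It was 13.6% for Mmp24 with BC029722 and 11.5% for Mmp7 with AV064505. Mmp12 and Mmp1b share 157 bases. Reads from these stretches cannot be assigned to a strand here.

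**Figure D1:**
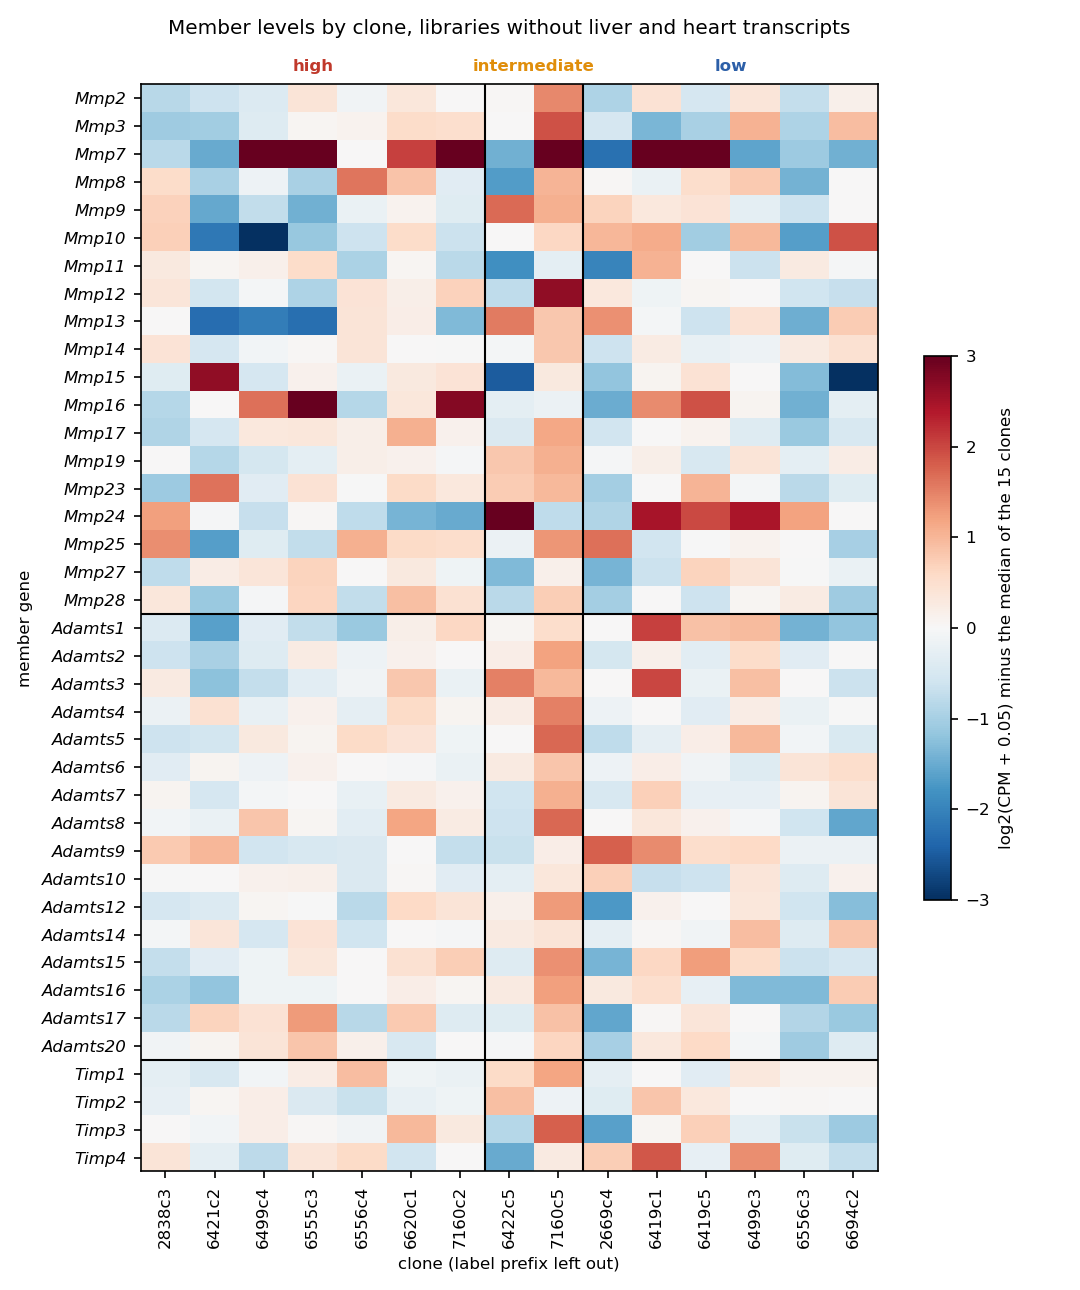
Heat map of the 39 members that passed the filter in libraries without liver and heart transcripts, with clones in columns grouped as high, intermediate and low and genes in rows. Colour gives log2(CPM + 0.05) minus the median of the 15 clones. The column of the intermediate clone bulk_7160c5 holds the highest level for 17 of the 39 members, and the columns of bulk_2669c4 and bulk_6421c2 hold the lowest for 11 and 9.

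Clones differed from each other in most members. The test below has a term for the library class but none for the amount of liver and heart transcripts. That amount ran from 258 to 5922 CPM of the 4 class genes in libraries with them. Differences in it between clones can remain in the clone terms and were not separated. In a model of the 34 tumours with a term per clone and a term for the library class, 28 of 42 members passed an adjusted p of 0.05 by edgeR's quasi-likelihood test (66.7%), against 31.5% of all 20421 genes. The 10 members with the smallest adjusted p in that edgeR test were Mmp15 (0.000195), Adamts12 (0.000273), Mmp2 (0.000357), Adamts9 (0.000388), Mmp23 (0.000419), Adamts1 (0.000466), Mmp3 (0.000525), Mmp13 (0.000854), Adamts15 (0.00176) and Adamts2 (0.00254). The 14 members that did not pass were Mmp8, Mmp19, Mmp24, Mmp25, Mmp27, Timp4, Adamts3, Adamts6, Adamts13, Adamts14, Adamts17, Adamts18, Adamts19 and Adamts20. Without the 8 libraries over 50% of the highest liver and heart level, 20 of 42 members passed, against 26.0% of genes. On the 17 libraries without these transcripts alone, where 2 residual degrees of freedom remained, 0 of 40 members passed by edgeR, against 0.00526% of genes, and 13 had an unadjusted p under 0.05, against 24.3% of genes.

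The clones that stood out did so for particular proteases. Mmp15, a membrane-type enzyme, reached 456 CPM in the high clone bulk_6421c2 and ran from 50.8 to 96.2 CPM in the other high clones. It was at 12.8 CPM in the intermediate clone bulk_6422c5 and at 8.18 CPM in the low clone bulk_6694c2, so that its highest level was 55.8 times its lowest. Adamts1 had its lowest level, 28.3 CPM, in the high clone bulk_6421c2 and its highest, 361 CPM, in the low clone bulk_6419c1, which differ 12.8-fold. The stromelysin Mmp10 was at 0.966 CPM in the high clone bulk_6499c4 and 33.8 CPM in the low clone bulk_6694c2, its lowest and highest levels. Mmp7, an enzyme known from glandular epithelium, was nearly a present-or-absent gene. It was at 15.7 and 15.2 CPM in the high clones bulk_6499c4 and bulk_6555c3, at 4.56 CPM in the intermediate clone bulk_7160c5 and at 4.19 CPM in the high clone bulk_7160c2. In the low clones bulk_6419c1 and bulk_6419c5 it was at 3.05 and 1.99 CPM, in the high clone bulk_6620c1 it was at 0.939 CPM, and in the other 8 clones it was at or under 0.188 CPM. Levels over 1 CPM thus occurred in clones of each phenotype. In the 17 libraries with liver and heart transcripts, Mmp7 was detected throughout, from 0.3335 to 4.90 CPM with a median of 2.09 CPM.

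Other members varied little. Mmp14, the membrane enzyme that activates the Mmp2 precursor, ran from 387 to 731 CPM in high clones, was at 970 and 527 CPM in intermediate clones and ran from 356 to 750 CPM in low clones. The highest and the lowest level of Mmp14 differed 2.73-fold, those of Timp2 2.98-fold and those of Adamts6 2.33-fold. Timp2, which takes part in that activation and inhibits most members of the family, had a median of 427 CPM in high clones, was at 945 and 450 CPM in intermediate clones, and had a median of 512 CPM in low clones. Adamts10, of a subgroup tied to fibrillin fibres, ran from 22.8 to 59.8 CPM over all clones.

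Tumours of the high clone bulk_2838c3 differed from each other in collagenase and stromelysin genes. Its tumours 2 and 3 were both in the class without liver and heart transcripts. Mmp10 was at 1.63 CPM in tumour 2 and 25.6 CPM in tumour 3 of that clone, Mmp13 was at 21.2 and 99.5 CPM, and Mmp9 was at 70.4 and 313 CPM. Mmp2 was at 75.1 and 88.8 CPM in the same pair, and Timp2 was at 448 and 411 CPM. In the low clone bulk_2669c4, of Mmp9, Mmp10 and Mmp13, Mmp9 alone differed by much. Its tumours 3 and 4 had 19.3 and 17.2 CPM of Mmp10, 166 and 165 CPM of Mmp13, and 296 and 143 CPM of Mmp9. Mmp2 and Timp2 were thus close in the pair of bulk_2838c3, where Mmp9, Mmp10 and Mmp13 were not.

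The comparison of high with low tumours is the one that the series' design text names, and no member passed the test in it. By edgeR, 0 of 42 members had an adjusted p under 0.05, and the share among all 20348 genes was 0 as well, with a smallest adjusted p of 0.659. DESeq2 called 21 genes on the same sums (0.0889% of 23613), of which 0 were members. At an unadjusted p under 0.05 there were 5 of 42 members (11.9%), against 7.45% of all genes, with 3 higher and 2 lower in high clones, against 4.31% and 3.14% of genes. The median log2 difference, high minus low, was 0.19 over the members, with 31 positive, and 0.00 over all genes. On libraries without liver and heart transcripts the member median was -0.01, 19 of 39 were positive, and only Mmp24 had an unadjusted p under 0.05 (2.56% of members, against 6.52% of genes).

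The smallest p belonged to Mmp15. Its lowest, median and highest levels were 50.8, 79.9 and 456 CPM in high clones and 8.18, 52.2 and 98.6 CPM in low clones, so the groups overlapped. Summed over all libraries, Mmp15 averaged 105 ± 121 CPM in high clones and 37.6 ± 20.3 CPM in low clones (SD, n = 7 each). The log2 difference of Mmp15 was 1.48 (SE 0.55, edgeR unadjusted p = 0.0151, adjusted p = 0.659). It was 0.66 (SE 0.40, unadjusted p = 0.113) without the high clone bulk_6421c2, which alone held the highest level.

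The 2 members with an unadjusted p under 0.05 and lower values in high clones were Mmp13 and Mmp10, both in the chromosome 9 cluster whose windows are shown above. Mmp13 had lowest, median and highest levels of 12.9, 25.4 and 82.3 CPM in high clones and 23.1, 72.9 and 165 CPM in low clones. Its log2 difference was -1.03 (SE 0.45, edgeR unadjusted p = 0.0337). Mmp10 had 0.966, 5.70 and 14.6 CPM in high clones and 2.81, 17.7 and 33.8 CPM in low clones, with a log2 difference of -0.99 (SE 0.44, edgeR unadjusted p = 0.0372). The groups overlapped for both genes. Neither reached an unadjusted p of 0.05 on libraries without liver and heart transcripts, where the differences were -0.98 (SE 0.52) for Mmp13 and -1.27 (SE 0.61) for Mmp10.

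Of the remaining named members, Mmp17, a membrane enzyme held by a lipid anchor, differed by 0.63 (SE 0.29), Mmp28, also called epilysin, by 0.71 (SE 0.33) and Adamts18 by 1.16 (SE 0.55) on the log2 scale, high minus low. Their edgeR unadjusted p were 0.0470 for Mmp17, 0.0494 for Mmp28 and 0.0507 for Adamts18, and all 3 had an adjusted p of 0.667. Mmp17 ranged over 1.06 to 4.33 CPM in high and 0.917 to 2.20 CPM in low clones, and Mmp28 over 13.5 to 54.5 CPM in high and 13.96 to 34.7 CPM in low clones. Adamts18 was at 0.365 CPM at most in any clone. The inhibitors did not separate the groups either. Timp1 differed by 0.22 (SE 0.17), Timp2 by -0.13 (SE 0.14), Timp3 by 0.53 (SE 0.27) and Timp4 by -0.29 (SE 0.40).

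**Figure D2:**
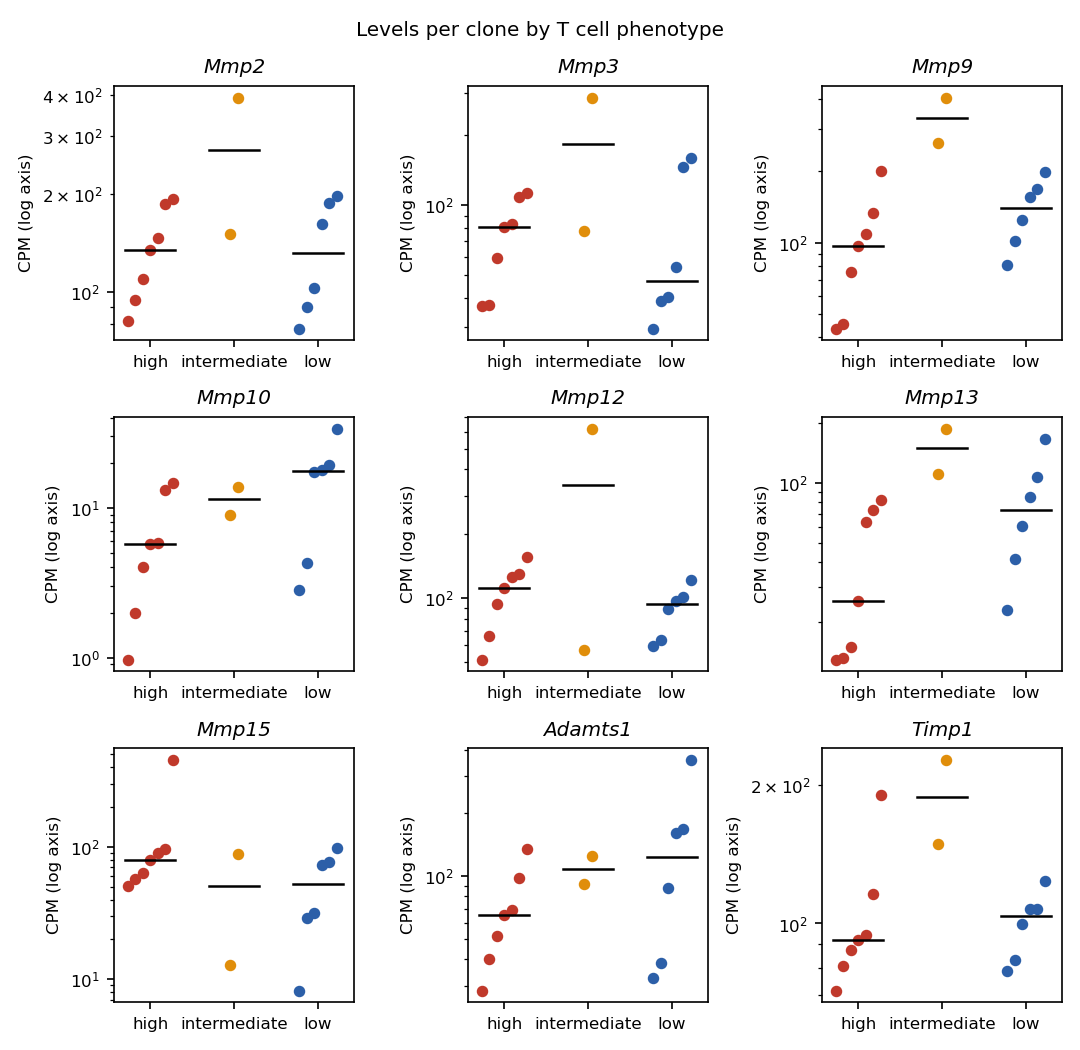
Levels of 9 members per clone in libraries without liver and heart transcripts, on a log axis of CPM, for 7 high, 2 intermediate and 6 low clones. Points are clones and black lines are group medians. High and low clones overlap in every panel, and both intermediate clones lie above all high and low clones for Mmp9. For single tumours, which are not shown, bulk_7160c5 does not lie above all of them.

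Intermediate clones held higher levels of many members than low clones, although none passed after adjustment. By edgeR, 0 of 42 members and 0 of 20348 genes were called, with a smallest adjusted p of 0.132. At an unadjusted p under 0.05 there were 21 of 42 members, against 16.0% of genes, with 19 higher and 2 lower in intermediate clones, against 9.56% and 6.47% of genes. The median log2 difference, intermediate minus low, was 0.87 over the members and 0.03 over all genes, with 35 of 42 members positive. On libraries without liver and heart transcripts 10 of 39 members (25.6%) had an unadjusted p under 0.05, against 6.27% of genes. All 10 were higher, against 4.85% of genes, and the member median was 0.65. Only 2 clones make up the intermediate group, and they differed from each other.

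Without bulk_7160c5 the median over 43 members was 0.16, and 8 members (18.6%, against 9.22% of genes) had an unadjusted p under 0.05, with 4 higher and 4 lower, against 3.36% and 5.86% of genes. Without bulk_6422c5 the median was 1.09, and 5 members were called by edgeR, which are Adamts2, Adamts4, Adamts5, Adamts12 and Mmp2, against 2.27% of genes. All 5 were higher, against 2.19% of genes. In these fits the remaining intermediate clone has no replicate of its own and is assumed to vary like the other groups. Without the high clone bulk_7160c2, which enters the shared estimate of the spread, Mmp2, Mmp9, Mmp19 and Timp1 were called by edgeR (9.52% of 42 members, against 2.81% of 20159 genes), all higher, against 1.40% of genes. DESeq2 called 6 members on the same sums (14.3%), against 945 of 20518 genes (4.61%). They were Adamts12, Mmp2, Mmp9, Mmp19 and Timp1, all higher, against 1.61% of genes, and Timp4, which was lower, against 2.99% of genes. Timp4 is also the member that rose most in libraries with liver and heart transcripts, as given below. In all libraries it averaged 0.407 CPM in intermediate and 1.78 CPM in low clones. In libraries without these transcripts it averaged 0.0603 and 0.191 CPM. The part of these transcripts in the call of Timp4 was not tested.

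Mmp19 had the smallest p of the members. This enzyme, known for a broad range of basement membrane substrates, was at 33.2 CPM in bulk_6422c5 and 39.7 CPM in bulk_7160c5, above all 6 low clones (13.5, 20.01 and 24.6 CPM as lowest, median and highest). Its log2 difference, intermediate minus low, was 1.06 (SE 0.24, edgeR unadjusted p = 0.000479, adjusted p = 0.132). Mmp9, the gelatinase stored by granulocytes and also made by macrophages, was at 407 CPM in bulk_6422c5 and 262 CPM in bulk_7160c5, against 80.9, 140 and 199 CPM in low clones. Its difference was 1.42 (SE 0.37, edgeR unadjusted p = 0.00141). Timp1, the secreted inhibitor that rises with inflammation and wounding, was at 149 and 228 CPM in the same clones, against 78.7, 104 and 124 CPM in low clones, and differed by 0.99 (SE 0.24, edgeR unadjusted p = 0.000681). For these 3 genes the intermediate and low clones did not overlap. Single tumours did for Mmp9, as tumour 3 of the low clone bulk_2669c4, given above, was higher than bulk_7160c5. The differences of the 3 genes stayed at 1.02 (SE 0.32) for Mmp19, 1.65 (SE 0.46) for Mmp9 and 0.75 (SE 0.32) for Timp1 without bulk_7160c5.

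For Mmp2, Adamts12 and Adamts4 most of the difference came from bulk_7160c5. Mmp2 was at 394 CPM in bulk_7160c5 and 151 CPM in bulk_6422c5, against 77.1, 132 and 196 CPM in low clones. Its difference was 1.49 (SE 0.37, edgeR unadjusted p = 0.000933) and 0.66 (SE 0.47) without bulk_7160c5. Adamts12, which cuts cartilage oligomeric matrix protein, was at 61.6 CPM in bulk_7160c5 and 28.6 CPM in bulk_6422c5, against 7.69, 21.3 and 32.3 CPM in low clones. It differed by 1.39 (SE 0.37, edgeR unadjusted p = 0.00151) and by 0.74 (SE 0.48) without bulk_7160c5. Adamts4, an aggrecanase, was at 107 CPM in bulk_7160c5 and 43.8 CPM in bulk_6422c5, against 29.6, 35.6 and 44.0 CPM in low clones. It differed by 0.998 (SE 0.29, edgeR unadjusted p = 0.00299) and by 0.37 (SE 0.36) without bulk_7160c5.

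The same clone carried the highest levels of several more matrix genes. The stromelysin Mmp3 was at 288 CPM in bulk_7160c5 and 77.1 CPM in bulk_6422c5, and Mmp12 at 620 and 57.3 CPM. Adamts5, the other main aggrecanase, was at 59.5 and 17.9 CPM, the procollagen N-proteinase Adamts2 at 186 and 92.3 CPM, and the matrix-bound inhibitor Timp3 at 219 and 35.0 CPM. In bulk_6422c5 the highest levels of all clones were those of Mmp9, of Timp2 at 945 CPM and of Mmp13 at 187 CPM. The sum of 9 fibroblast markers, Pdgfra, Pdgfrb, Dcn, Lum, Thy1, Fap, Col1a1, Col1a2 and Col3a1, was 29695 CPM in bulk_7160c5 and 13903 CPM in bulk_6422c5, against 6856 to 17449 CPM in low clones, with no marker at 0. The sum of 7 macrophage markers was 2141 CPM in bulk_7160c5 and 825 CPM in bulk_6422c5, against 499 to 1351 CPM in low clones, also with no marker at 0. The part of these cells in the differences was not tested.

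**Figure D3:**
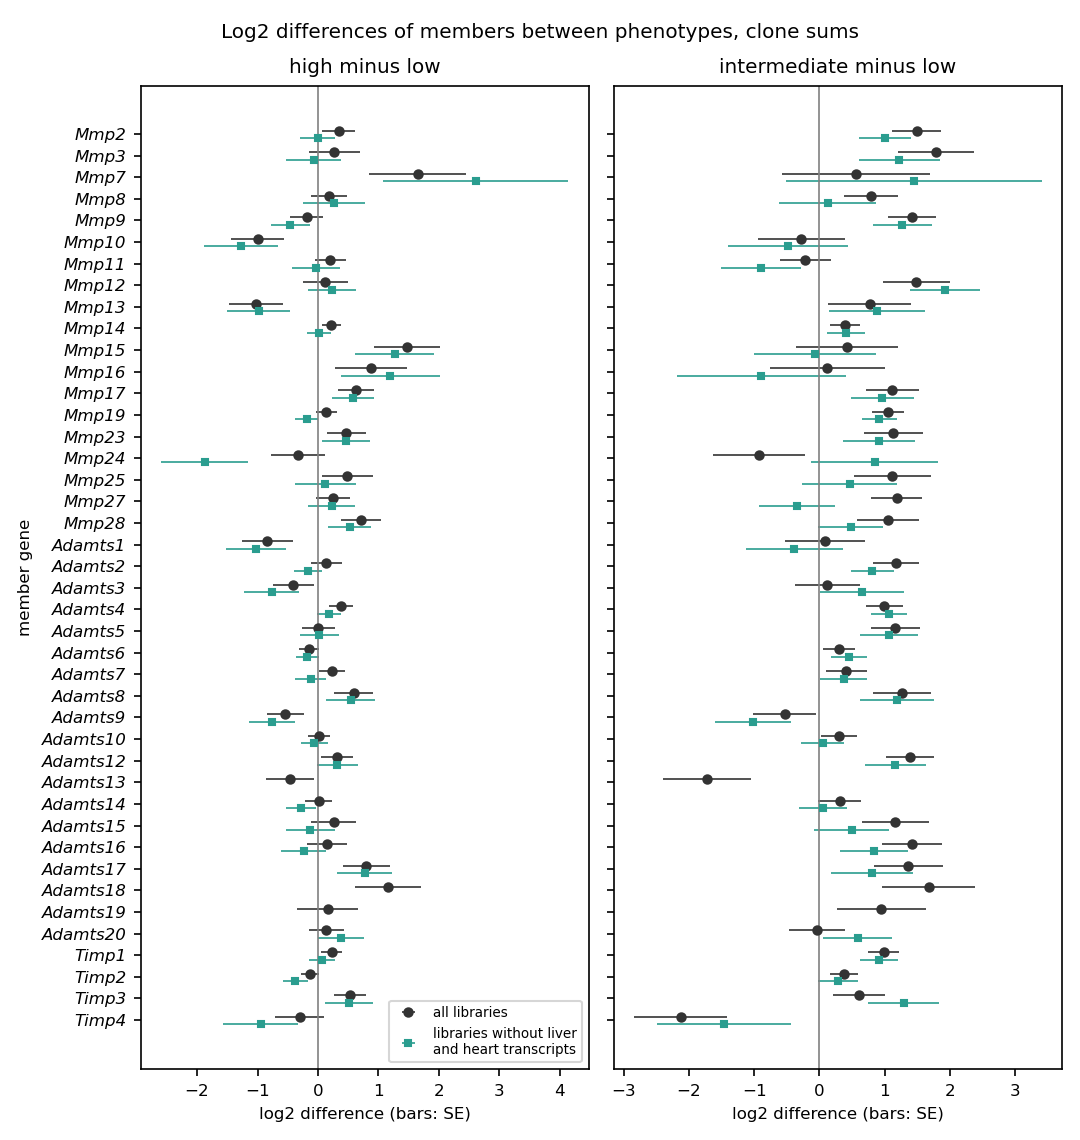
Log2 differences of the 42 tested members, high minus low on the left and intermediate minus low on the right, with bars of 1 SE. Dark circles use all libraries summed per clone, and green squares use libraries without liver and heart transcripts. With all libraries, high minus low values have a median of 0.19 with 31 of 42 positive. Intermediate minus low values have a median of 0.87 with 35 of 42 positive.

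High clones lay below intermediate clones for most members, a comparison that shares the intermediate clones with the previous one. By edgeR, 0 of 42 members and 0 of 20348 genes were called, with a smallest adjusted p of 0.303. At an unadjusted p under 0.05 there were 14 of 42 members (33.3%), against 10.3% of genes, with 1 higher and 13 lower in high clones, against 5.43% and 4.89% of genes. The median log2 difference, high minus intermediate, was -0.59 over the members and -0.04 over all genes. It was 0.00 over 43 members without bulk_7160c5, with 20 of 43 positive. Mmp9 had 43.5, 97.2 and 201 CPM as lowest, median and highest level in high clones, against 407 and 262 CPM in intermediate clones, without overlap. Its log2 difference was -1.61 (SE 0.37, edgeR unadjusted p = 0.000438) and -1.85 (SE 0.46) without bulk_7160c5. Among single tumours, tumour 3 of the high clone bulk_2838c3, given above, had more Mmp9 than bulk_7160c5. Mmp13 had 12.9, 25.4 and 82.3 CPM in high clones, against 187 and 110 CPM in intermediate clones, and differed by -1.80 (SE 0.60) without overlap. Mmp19 differed by -0.92 (SE 0.25), Timp1 by -0.76 (SE 0.24), Adamts5 by -1.16 (SE 0.38) and Mmp2 by -1.15 (SE 0.38), of which Adamts5 and Mmp2 stood at -0.24 (SE 0.47) and -0.33 (SE 0.48) without bulk_7160c5. DESeq2 called Mmp9 and Mmp19, both lower in high clones (4.76% of 42 members), against 2.72% of 19900 genes called and 0.392% called lower.

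Clones that share a number in their names also differed in the members. In the pair of bulk_7160c2 (high) and bulk_7160c5 (intermediate), Mmp12 was at 156 and 620 CPM, Mmp9 at 97.2 and 262 CPM, and Timp1 at 87.5 and 228 CPM. In the pair of bulk_6499c4 (high) and bulk_6499c3 (low), Mmp10 was at 0.966 and 17.5 CPM, Mmp13 at 15.01 and 85.3 CPM, and Mmp7 at 15.7 and 0.0294 CPM. In the pair of bulk_6556c4 (high) and bulk_6556c3 (low), Mmp10 was at 5.81 and 2.81 CPM, Mmp13 at 82.3 and 23.1 CPM, and Mmp7 at 0.188 and 0.0611 CPM. Mmp10 and Mmp13 were thus lower in the high clone of the first of these high and low pairs and higher in the high clone of the other. With 1 clone on each side no test was made.

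Libraries with liver and heart transcripts differed from the others in 23 of 42 members (54.8%), against 47.5% of all genes, in edgeR's test within clones over 34 tumours. All 16 tumours numbered 1 were in this class, and only 1 other tumour, numbered 2, was. With tumour number 1 against the others in place of the class, 22 of 42 members were called, against 9052 of 20421 genes. The class thus cannot be told apart from the tumour number. Of the 23 members called by class, 8 rose and 15 fell in libraries with such transcripts, against 24.4% and 23.1% of genes. The median log2 difference was -0.21 over the members and -0.01 over all genes. Without the 8 libraries over 50% of the highest liver and heart level, 6 members were called (14.3%), against 20.9% of genes. These were Timp4, Timp3, Mmp24, Adamts13 and Adamts6, which were higher (10.7% of genes), and Mmp14, which was lower (10.2% of genes).

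The largest rise was that of Timp4, the inhibitor known from heart muscle. It ran from 0.372 to 5.46 CPM with a median of 2.86 CPM in libraries with these transcripts, and from 0 to 0.469 CPM with a median of 0.111 CPM in libraries without. The ranges overlapped only at their ends. The log2 difference, with minus without, was 4.40 (SE 0.37, edgeR adjusted p = 2.78e-09). Mmp24, a membrane enzyme known from the nervous system, had a median of 8.16 CPM with and 0.462 CPM without them, and rose by 3.42 (SE 0.47, edgeR adjusted p = 4.71e-06). Adamts13, the protease of von Willebrand factor, which is made in the liver, had a median of 0.737 CPM with and 0.0600 CPM without them, and rose by 3.14 (SE 0.27, edgeR adjusted p = 6.38e-09). Timp3 had medians of 122 CPM with and 59.1 CPM without and rose by 0.95 (SE 0.15, edgeR adjusted p = 1.54e-05). Mmp7 rose by 1.72 (SE 0.66), Adamts20 by 1.30 (SE 0.25), Adamts3 by 0.95 (SE 0.25) and Adamts6 by 0.88 (SE 0.12).

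Among members that fell, Mmp9 had a median of 50.4 CPM with and 122 CPM without liver and heart transcripts, a log2 difference of -1.33 (SE 0.26, edgeR adjusted p = 0.000236). Mmp14 had medians of 337 CPM with and 552 CPM without, a difference of -0.72 (SE 0.10, edgeR adjusted p = 4.06e-06). Mmp25, the membrane enzyme of granulocytes, differed by -1.50 (SE 0.41), Mmp17 by -0.92 (SE 0.20), Adamts17 by -0.91 (SE 0.32), Mmp28 by -0.89 (SE 0.22), Mmp15 by -0.85 (SE 0.21) and Adamts2 by -0.78 (SE 0.14). The sum of liver markers was 541 to 11550 CPM with and 11.8 to 1079 CPM without, and that of fibroblast markers was 1665 to 26930 CPM with and 5670 to 30140 CPM without, with no marker at 0 in either class. The part of these tissues in the differences was not tested. Such libraries numbered 7 of 15 high, 2 of 4 intermediate and 8 of 15 low, but their summed level of the 4 class genes differed. It was 283 to 5922 CPM in high, 258 and 290 CPM in intermediate and 1508 to 5894 CPM in low libraries, and 5 high, 0 intermediate and 3 low libraries were over 50% of the highest level. The tests between phenotypes that use all libraries include these libraries in the sums.

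**Figure D4:**
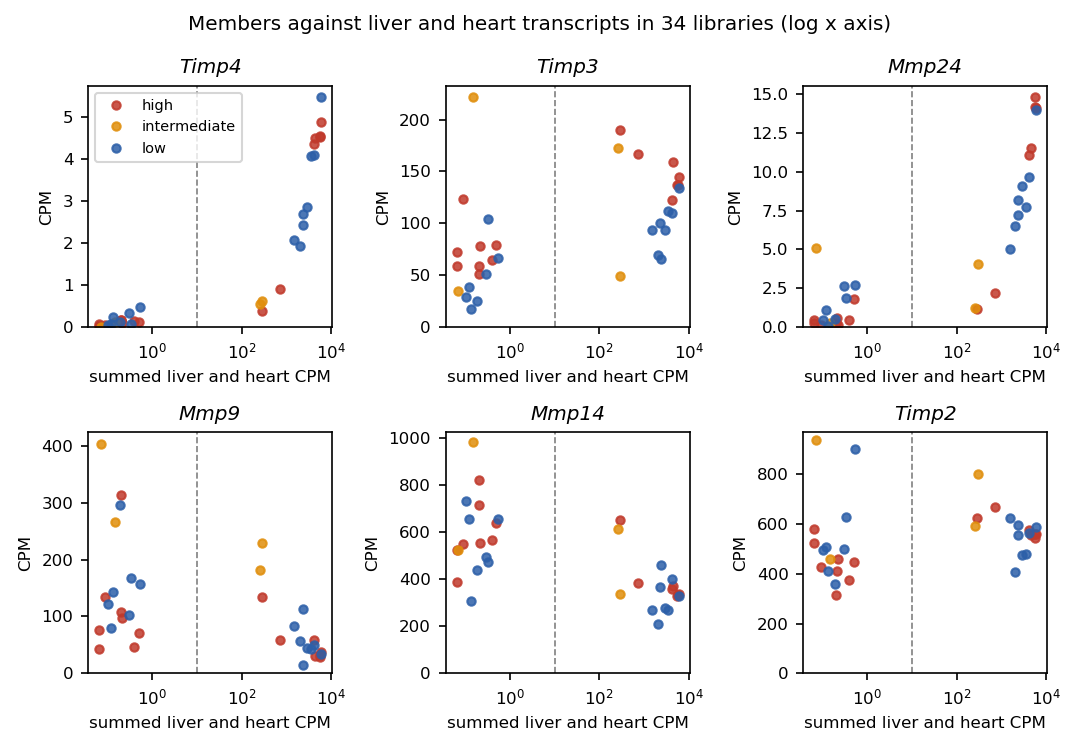
CPM of 6 members in the 34 libraries with a phenotype, against the summed CPM of Myh6, Myh7, Cps1 and Serpina3k on a log axis. Points are libraries coloured by phenotype and the dashed line marks 10 CPM. Timp4 and Mmp24 climb with the liver and heart sum to 5.46 and 14.8 CPM, while Mmp9 and Mmp14 lie mostly lower to the right of the line.

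Several members followed the mean log2 level of the markers of a stromal or epithelial cell type from clone to clone. A set of 14 pairs was examined over the 15 clones with Pearson's r and Spearman's rho on log2 CPM, by permutation tests of 100000 resamples adjusted over the 14 pairs. By r, 7 pairs had an adjusted permutation p under 0.05. Clones sharing a number may not be independent, and the markers and members of a clone come from the same libraries.

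Mmp2 and Adamts2 ran with the 9 fibroblast markers. For Mmp2, r was 0.92 and rho 0.85 (adjusted permutation p = 7e-05 and 0.0007), and r was 0.95 within the 7 high clones and 0.80 within the 6 low clones. For Adamts2, r was 0.92 and rho 0.90 (adjusted permutation p = 7e-05 and 0.00028). The unadjusted p for r of 1e-05 is the smallest these permutations can give. Without the 2 clones farthest from the median score, r was 0.84 for Mmp2 and 0.92 for Adamts2. Mmp8, the collagenase of granulocytes, ran with 10 granulocyte markers at an r of 0.80 and a rho of 0.79 (adjusted permutation p = 0.00149 and 0.00336), and at an r of 0.72 without the 2 farthest clones. These 3 pairs kept an adjusted permutation p under 0.05 there.

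The relations of Adamts12, Timp1 and Mmp12 were weaker and did not pass without the farthest clones. Adamts12 and Timp1 had an r with fibroblast markers of 0.77 and 0.72 (adjusted permutation p = 0.00361 and 0.007) and a rho of 0.69 each (adjusted permutation p = 0.0163 for both). Without the 2 farthest clones r was 0.46 for Adamts12 and 0.50 for Timp1 (adjusted permutation p = 0.228 and 0.215). Mmp12 with 7 macrophage markers had an r of 0.78 and a rho of 0.49 (adjusted permutation p = 0.007 and 0.119), and an r of 0.38 without its 2 farthest clones (adjusted permutation p = 0.35). Within the 7 high and the 6 low clones, r was 0.60 and 0.72 for Adamts12 and 0.45 and 0.68 for Timp1. For Mmp12 it was 0.24 and 0.72. With all libraries summed per clone, r was 0.92 for Adamts12, 0.82 for Timp1 and 0.87 for Mmp12. Mmp7 with the mean of 7 ductal epithelial markers had an r of 0.71 and a rho of 0.64 (adjusted permutation p = 0.00782 and 0.0292). It had an r of 0.67 without its own 2 farthest clones, close to the value over all 15 clones (adjusted permutation p = 0.0525). Within the 7 high and the 6 low clones, r of Mmp7 was 0.73 and 0.36. With all libraries summed per clone it was 0.64, with 0.59 within high and -0.03 within low clones. These 7 markers did not move together. In bulk_7160c5, Epcam was at 879 CPM and Krt8 at 1153 CPM, whereas bulk_6556c3 had 16.0 CPM of Epcam and 3071 CPM of Krt8.

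The remaining 7 pairs did not pass over the 15 clones. Mmp9 with granulocyte markers had an r of 0.16 (adjusted permutation p = 0.724), although both it and Mmp8 are known from granulocytes. With fibroblast markers, Mmp14 had an r of 0.55 (adjusted permutation p = 0.0605), Mmp13 an r of 0.13 (adjusted permutation p = 0.764) and Mmp11, a stromelysin known from tumour stroma, an r of 0.10 (adjusted permutation p = 0.787). Adamts1 with endothelial markers had an r of 0.51 (adjusted permutation p = 0.0768). Mmp19 and Timp2 with macrophage markers had an r of 0.27 and -0.05 (adjusted permutation p = 0.447 and 0.864). With all libraries summed per clone, over 16 clones, 9 pairs passed by r. These included Adamts1 with endothelial markers at an r of 0.66 and Mmp19 with macrophage markers at an r of 0.62 (adjusted permutation p = 0.0103 and 0.0159), and Mmp9 with granulocyte markers had an r of 0.47 (adjusted permutation p = 0.0799).

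**Figure D5:**
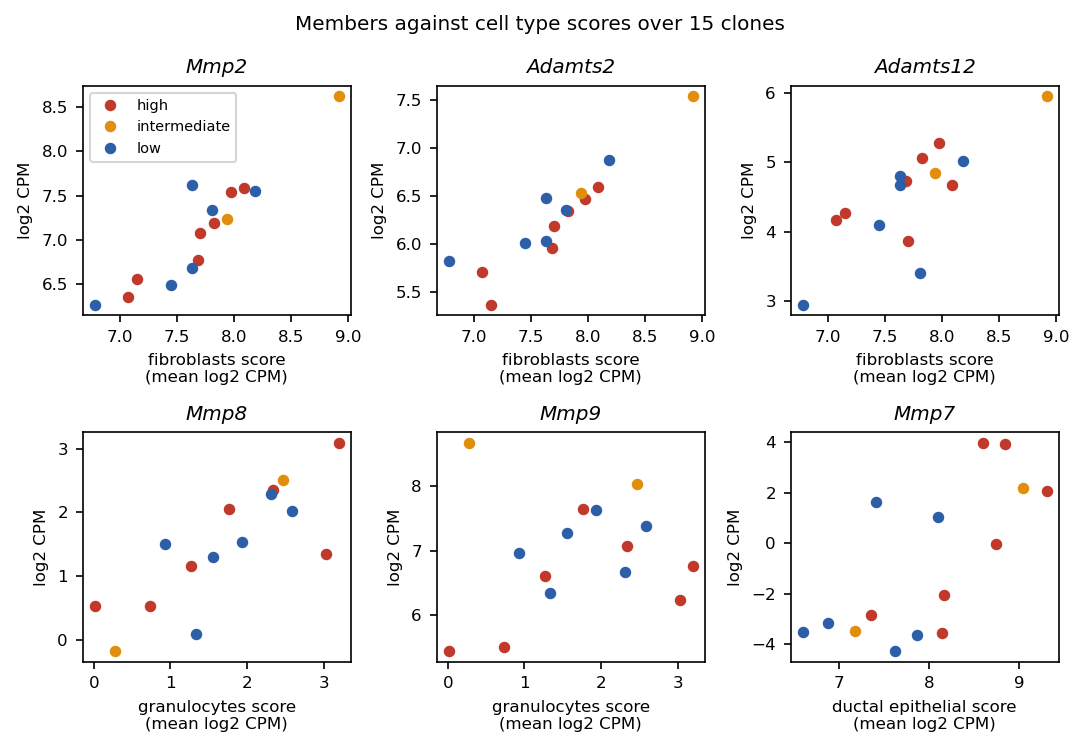
Log2 CPM of 6 members against the mean log2 CPM of the markers of a cell type over 15 clones, coloured by phenotype. Mmp2 and Adamts2 follow the fibroblast score (r 0.92 for both) and Mmp8 follows the granulocyte score (r 0.80), whereas Mmp9 has an r of 0.16 with that score.

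Genes that act with these proteases were counted in 6 lists. Between high and low clones 0 members of any list were called by edgeR, and the list medians ran from -0.17 for the plasminogen system to 0.23 for the cysteine cathepsins. Between intermediate and low clones, again with 0 called, 4 of 9 genes of the plasminogen system had an unadjusted p under 0.05 (2 higher and 2 lower), against 16.0% of all genes. So had 3 of 9 ADAM sheddases, 1 of 6 ADAMTS-like genes, 3 of 5 cysteine cathepsins and their inhibitor and 5 of 9 matrix substrates, all higher, and 5 of 8 regulators of metalloproteinases, with 4 higher and 1 lower. On libraries without liver and heart transcripts the counts were 1 of 8 plasminogen genes, 1 of 9 sheddases, 1 of 6 ADAMTS-like genes, 2 of 5 cathepsin genes, 2 of 8 substrates and 2 of 8 regulators, all higher, against 6.27% of genes. The gene with the smallest p in its list was Plau, the urokinase that makes plasmin, with a log2 difference of 1.08 (SE 0.24, edgeR unadjusted p = 0.000392). In the other lists it was Adam19 at 1.14 (SE 0.35), Adamtsl1 at 1.73 (SE 0.40), Tfpi2, a secreted protease inhibitor, at 1.198 (SE 0.31), the collagen-cutting cathepsin Ctsk at 1.17 (SE 0.30) and the collagen Col3a1 at 1.43 (SE 0.40). Among clones, 5 of 9 plasminogen genes, 5 of 9 sheddases, 4 of 6 ADAMTS-like genes, 2 of 8 regulators, 4 of 5 cathepsin genes and 6 of 8 substrates tested passed by edgeR, against 31.5% of all genes. Plg, the plasminogen gene made in the liver, had the smallest p of the plasminogen genes in that test. It was under 0.072 CPM in every clone in libraries without liver and heart transcripts. In libraries with these transcripts it rose by 13.04 on the log2 scale (SE 0.24). The part of these transcripts in its call among clones was not tested.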

How the data were processed

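RNA was sequenced from whole tumours, 1 library per tumour, from an input of 500 ng per the labels' protocols. The authors deposited read counts per gene for 37 libraries, judged from the values as whole numbers without normalisation. The submitters' processing notes name STAR, featureCounts and mm10, without versions, annotation or strand setting. GENCODE M21 held 37607 of the 39017 gene identifiers.

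Counts were summed per clone and tested with edgeR 4.0.16 (R 4.3.3) by the two-sided quasi-likelihood test, with TMM scaling, the default expression filter and 1 coefficient per phenotype over 16 clones. Clones and library classes were compared on tumours in a model with a term for each. Adjustment was by Benjamini and Hochberg's method over all genes, with a threshold of 0.05. Approximate standard errors (SE) came from the size of the log2 difference over the root of edgeR's F. The tests were tried on simulated data. Alternatives used DESeq2 1.42.0, limma 3.58.1 (voom with a correlation within clones), other scalings and filters, library classes and each clone left out. Cell type scores were mean log2 CPM of markers with a prior count of 2. Of 8 macrophage markers 7 were found.

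The members, lists and tests were chosen with earlier results of these data known. Test values are printed for called members, up to 8 per direction (10 by smallest p among clones), or else the 6 with the smallest p, and levels for 19 preset members. Other levels were named after they were seen. Partner genes are those with the smallest p in their list.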

Additional observations from a re-analysis of the deposited data

Results flagged for a closer look

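Mmp15 was flagged because a high clone stood far from the other 6, with 456 CPM in bulk_6421c2 and 96.2 CPM in the next highest clone. Timp3 was flagged for the same reason, with 123 CPM in the high clone bulk_6620c1 and 77.4 CPM in the next. Over 78 groups of clones examined this way 2 were flagged, and chance flags about 1 in 20 groups.

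Libraries without a phenotype label also held reads of the members. Over 3 counts were found for 44 members in bulk_6883c1_no1, for 45 in bulk_6883c4_no1 and for 36 in bulk_7062c3_no2.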

How the results depend on the processing

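Across all alternatives, 138 values for counts of calls stayed within 1.5 times the reported one and 30 did not. For single members, 552 values kept direction and side of the threshold, 27 passed it only under the alternative, 26 no longer did and 6 changed sign. Genes called between high and low clones numbered 21 with DESeq2 and 38 with tumours taken as independent. Between intermediate and low clones they numbered 945 with DESeq2, 130 with limma voom, 8 with the library class as a term, 421 with tumours as independent and 0 to 567 when 1 clone was left out, of which members made up 6 with DESeq2, 5 with voom, 8 with tumours as independent and 0 to 5 with 1 clone left out. Between high and intermediate clones they numbered 542 with DESeq2 (2 members), 1 on libraries without liver and heart transcripts, 4 with tumours as independent and 0 to 3 with 1 clone left out. Among clones 10105 genes were called with DESeq2, 2468 (12 members) without the class term and 1 (0 members) on libraries without liver and heart transcripts. The library class called 4163 genes and 6 members without the 8 libraries highest in liver and heart transcripts. Of the 14 relations, 3 passed without the 2 clones farthest from the median score. There, r changed sign for Mmp19 (-0.16) and Timp2 (0.0591) with macrophages and for Mmp11 (-0.33) and Mmp14 (-0.0735) with fibroblasts, and for Timp2 also with all libraries (0.29) and with total counts (0.0082). The cause was not tested.

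Tumour numbers in the labels do not tie tumours of different clones together, and all 16 tumours numbered 1 had liver and heart transcripts. With that number as a replicate block, 69 genes and 2 members (Adamts12 and Mmp19) were called between intermediate and low clones, and 5094 genes and 25 members among clones. The other comparisons of phenotypes kept 0 calls.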

Other observations

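The 3 libraries without a phenotype label lay inside the range of the 34 others for most members. In bulk_6883c1_no1, Timp2 was at 1343 CPM and Timp3 at 282 CPM, against maxima of 936 and 222 CPM among the 34, and Adamts7 was at 101 CPM, against 41.7 CPM. Adamts14 at 28.4 CPM and Mmp16 at 3.99 CPM were also above the highest of the 34, and Mmp13 at 8.602 CPM was below their lowest, 12.9 CPM. In bulk_7062c3_no2, Timp1 was at 242 CPM, above the highest of the 34 at 231 CPM, while Adamts1 at 21.1 CPM and Timp2 at 280 CPM were below their lowest, 28.3 and 316 CPM. In bulk_6883c4_no1, Adamts4 at 14.3 CPM and Adamts16 at 0.965 CPM were below the lowest of the 34. Both were also below it in bulk_6883c1_no1, at 9.27 and 0.284 CPM, as was Mmp23 at 4.385 CPM. Adamts20 was below it at 0.0967 CPM in bulk_6883c1_no1 and at 0.0334 CPM in bulk_7062c3_no2.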
